A study of Mus musculus with 9 samples.

Results

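The comparison asks what differed in splenic B cells between 3 and 6 months of age in Eµ-TCL1 mice, in which the immunoglobulin heavy chain enhancer Eµ drives human TCL1 in B cells. It was made of 4 RNA-seq libraries of the 9 in the series, each from the spleen of 1 mouse. The members were chosen by the sample descriptions: Eµ-TCL1 mice at 3 months (2 libraries) and Eµ-TCL1 mice at 6 months (2 libraries), all of strain C57BL/6N. The other 5 libraries came from Eµ-PRMT5/TCL1 mice, which carry human PRMT5 in addition to human TCL1, with 3 mice at 3 months and 2 at 6 months. All 9 mice carried the TCL1 transgene, and no mouse without it was part of the comparison. B cells were obtained with a negative selection kit, which removes other cells by antibodies and can leave some of them behind. Genes on chromosomes X and Y were left out, so each count below is of autosomal genes.

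TCL1 is a coactivator of the kinase AKT, which acts downstream of the B-cell receptor. Forced expression of TCL1 in mouse B cells leads over months to an expansion of CD5-positive B cells that resembles human chronic lymphocytic leukemia (CLL), and the spleen is among the first organs involved. Immediate early genes, such as those of the FOS and JUN families, are transcribed within minutes of a signal without new protein synthesis. The spleen also holds resident macrophages, which clear red cells and apoptotic cells, and monocytes and neutrophils that pass through from the blood.

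Before the results, 2 properties of the libraries bear on all of them. Both 6-month libraries held counts of 4 Y-linked genes (10434 and 7872 in all) and few of Xist (18 and 12), while both 3-month libraries held 1 count each of the Y-linked genes and 28744 and 23648 of Xist. The difference in age and a difference in the sex of the mice cannot be told apart within these 4 libraries. Total counts were 13094367 and 13659472 at 3 months and 17330246 and 15545370 at 6 months, so depth moved with age as well. The 5 B cell markers reported here (Ms4a1, Cd79a, Cd79b, Pax5 and Cd22) were present in each library, at a summed level of 2643 and 2690 counts scaled to a common library total (CPM) at 3 months and 1808 and 2183 CPM at 6 months. Markers of other cells were present too and are given beside the results. In such bulk samples fewer cells of a type and less RNA per cell cannot be told apart.

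Across the autosomal genes the differences between 6 and 3 months were small. Among 18257 genes tested, the median log2 fold change (6 months minus 3 months) was -0.02, with quartiles of -0.26 and 0.20, and 8601 genes were above 0 and 9655 below. In edgeR's quasi-likelihood test on all 9 libraries, 0 genes (0% of those tested) passed a Benjamini-Hochberg adjusted p of 0.05, and the smallest adjusted p was 0.434. At an unadjusted p under 0.05, a mark used here only to describe, 887 genes (4.86%) were higher and 955 (5.23%) lower at 6 months. The counts of list members at that mark below are to be read beside these shares. Values of the groups did not overlap for 3800 genes (20.8%) that were higher and 4325 (23.7%) that were lower.

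Other tests made some calls. DESeq2 called 55 of the 15815 autosomal genes for which it gave an adjusted p, 28 (0.177%) higher and 27 (0.171%) lower. When edgeR was fitted to the 4 Eµ-TCL1 libraries alone, 40 of 17569 genes (0.228%) were called higher and 5 (0.0285%) lower, and 6 genes were called by both. The fit of all 9 libraries borrows its estimate of the spread from the other groups too. Without Eµ-PRMT5/TCL1 6 mo replicate 1 it called 110 genes, without Eµ-PRMT5/TCL1 6 mo replicate 2 it called 107, and without Eµ-TCL1 6 mo replicate 2 it called 1.

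**Figure D1:**
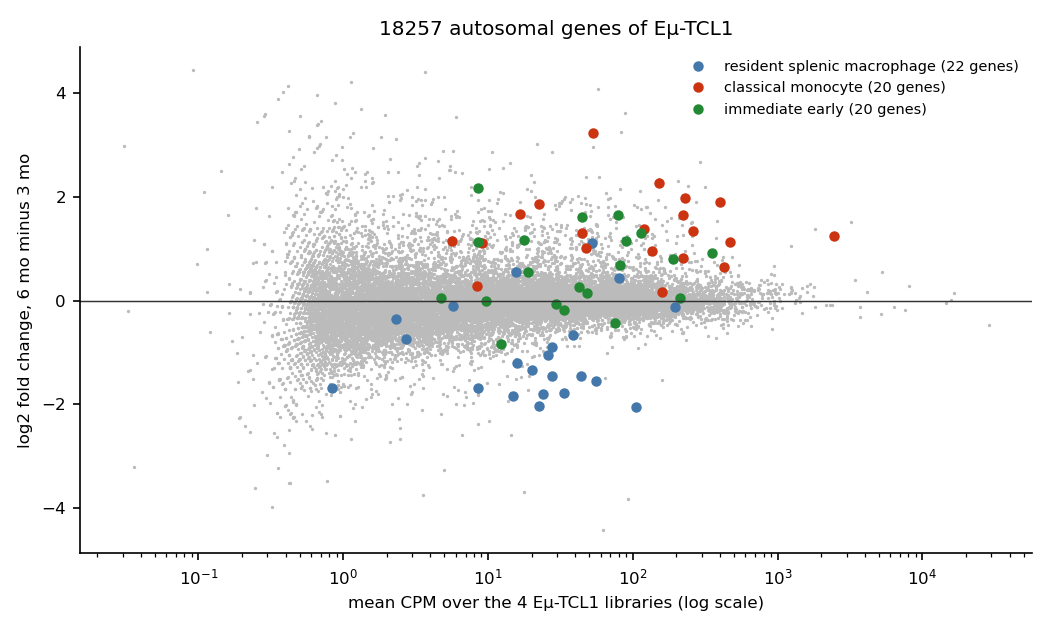
Each grey point is 1 of 18257 autosomal genes, with the mean CPM over the 4 Eµ-TCL1 libraries on a log axis and the log2 fold change between 6 and 3 months. Most genes lie near 0, the 22 genes of the macrophage list lie mostly below it (median -1.27), and the 20 of the classical monocyte list (median 1.28) lie above it. The macrophage and monocyte lists were compiled after the values had been seen.

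The 6 genes called both by DESeq2 and in the fit of the 4 libraries were Flot1, which was higher, and C1qa, C1qc, Axl, Fcna and Sema6d, which were lower at 6 months. Of the 6, 4 are in the list of resident splenic macrophage genes described further on. That list was compiled after the values had been seen, so the overlap describes these genes and lends no support. Flot1, a scaffold protein of membrane microdomains, had 27.8 and 32.8 CPM at 3 months and 76.4 and 89.8 CPM at 6 months (log2 fold change 1.46, SE 0.34). Sema6d, a transmembrane semaphorin, had 24.6 and 19.0 CPM at 3 months and 6.02 and 5.32 CPM at 6 months (-1.94, SE 0.37). In both genes the libraries of 1 age lay well apart from those of the other. Axl, a receptor tyrosine kinase for the uptake of apoptotic cells, had 72.6 and 56.0 CPM at 3 months and 21.3 and 25.9 CPM at 6 months. For Fcna, a ficolin of the lectin complement pathway, the values were 26.1 and 20.1 CPM at 3 months and 7.24 and 5.70 CPM at 6 months.

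The 12 higher genes with the smallest unadjusted p had log2 fold changes from 0.61 to 1.66. Rhob, which encodes a small GTPase, had 14.5 and 21.3 CPM at 3 months and 41.0 and 49.7 CPM at 6 months (1.34, SE 0.23). Ceacam1, an adhesion receptor with an inhibitory tail, had 46.5 and 49.4 CPM at 3 months and 74.2 and 77.6 CPM at 6 months (0.66, SE 0.12). The ages did not overlap for either gene, and at 3 months the replicates of Rhob lay farther apart than those of Ceacam1. Klf2, a zinc finger factor that controls lymphocyte trafficking and quiescence, had 118.9 and 123 CPM at 3 months and 163.6 and 211.9 CPM at 6 months (0.63, SE 0.13). Litaf, an endosomal membrane protein (1.07), Gas7 (1.02), Bmpr1a, a type I receptor for bone morphogenetic proteins (1.66), Abtb1 (0.77), Spata13, a guanine nucleotide exchange factor (0.82), and Tnfaip8l2, a negative regulator of immune receptor signalling (0.61), were also among the 12. The remaining 3 were Klf6, Nkg7 and Ccl3, described further on.

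The 12 lower genes had log2 fold changes from -1.99 to -0.51. Ptprm, a receptor tyrosine phosphatase, had 10.4 and 8.73 CPM at 3 months and 3.13 and 2.63 CPM at 6 months (-1.73, SE 0.31). Mybl1, a MYB family factor known from germinal centre B cells, had 21.8 and 29.9 CPM at 3 months and 11.99 and 10.2 CPM at 6 months (-1.22, SE 0.22). Rasgef1b, a guanine nucleotide exchange factor, had 92.7 and 119.7 CPM at 3 months and 64.9 and 65.3 CPM at 6 months (-0.71, SE 0.15). Each of these genes was lower in both 6-month libraries than in either 3-month library, which the rule for naming required of all 24. The others were Sema6d, C1qb, Dgki, a diacylglycerol kinase (-1.99), Kcnj16, an inward rectifier potassium channel (-1.67), Abcb4, a phospholipid transporter (-1.31), Vps37b, a subunit of the ESCRT-I complex (-0.97), Crem, a CREB family factor (-0.82), Scrib, a cell polarity protein (-0.54), and Mars2, the mitochondrial methionyl-tRNA synthetase (-0.51). DESeq2 called 17 of the 24 genes, and the fit of the 4 libraries alone called 1 of them (Sema6d). Among the Eµ-PRMT5/TCL1 libraries, Ptprm, Sema6d, C1qb, Dgki, Kcnj16 and Abcb4 were highest in 3-month replicate 2. That library also had the highest summed level of the macrophage list described further on (1675 CPM). Mybl1, Rasgef1b, Vps37b, Crem, Scrib and Mars2 were not highest there. The part of macrophages left after selection in these genes was not tested.

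Most immediate early genes were higher at 6 months. Of 20 measured, 15 were higher and 5 lower, and the median log2 fold change was 0.63, beside -0.02 over all autosomal genes. At an unadjusted p under 0.05, 8 were higher (Klf6, Jun, Klf4, Fosb, Ier3, Fos, Junb and Gadd45b) and 1 lower (Dusp2, a phosphatase that inactivates MAP kinases, -0.43). Over all autosomal genes 4.86% were higher and 5.23% lower at that mark. DESeq2 called 4 of the 20, which were Klf6, Jun, Fosb and Fos, beside 0.177% called higher and 0.171% lower over all genes. In edgeR's fit of all 9 libraries and in the fit of the 4 libraries alone none passed an adjusted p of 0.05. The list's summed level was 1041 and 1229 CPM at 3 months and 1561 and 2057 CPM at 6 months. Myeloid markers were higher in the same libraries: the 18 monocyte and macrophage genes summed to 2633 and 3664 CPM at 3 months and to 6481 and 5355 CPM at 6 months. In a fit of all 9 libraries with the mean level of monocyte, macrophage and neutrophil genes as a term, added after the values had been seen, the immediate early median was 0.54, with 7 genes higher and 1 lower at an unadjusted p under 0.05. That term averages macrophage genes that were lower with monocyte genes that were higher, so it holds neither level fixed.

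Klf6, a zinc finger factor, had 131 and 144.3 CPM at 3 months and 238.5 and 242.9 CPM at 6 months (log2 fold change 0.81, SE 0.14). The replicates differed little and the ages did not overlap. The genes of the AP-1 factor, a dimer of a FOS and a JUN protein, come next. Jun had 51.9 and 80.2 CPM at 3 months and 158.4 and 168.2 CPM at 6 months (1.31, SE 0.31). Fosb had 18.9 and 24.9 CPM at 3 months and 88.1 and 45.4 CPM at 6 months (1.61, SE 0.42). Fos had 36.4 and 40.0 CPM at 3 months and 87.4 and 154.4 CPM at 6 months (1.66, SE 0.56). The 6-month replicates of Fosb and Fos were unlike, with replicate 1 the higher for Fosb and replicate 2 the higher for Fos. Junb had 211.6 and 272.3 CPM at 3 months and 334.2 and 580.3 CPM at 6 months (0.92, SE 0.38). Ier3, a stress-induced regulator of survival, had 2.87 and 3.32 CPM at 3 months and 9.73 and 18.3 CPM at 6 months (2.17, SE 0.70).

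The windows before the start of the 4 AP-1 genes are shown because these genes were higher together, in each case 250 bases on the coding strand of GRCm38.p6 from RefSeq. They lie at chr4:95052223-95052472 on the minus strand for Jun, chr7:19310046-19310295 on the minus strand for Fosb, chr12:85473640-85473889 on the plus strand for Fos and chr8:84978749-84978998 on the minus strand for Junb. Capitals mark TGACG, the half-site of the cAMP response element, and TATAAA, the TATA box, on either strand.
Jun: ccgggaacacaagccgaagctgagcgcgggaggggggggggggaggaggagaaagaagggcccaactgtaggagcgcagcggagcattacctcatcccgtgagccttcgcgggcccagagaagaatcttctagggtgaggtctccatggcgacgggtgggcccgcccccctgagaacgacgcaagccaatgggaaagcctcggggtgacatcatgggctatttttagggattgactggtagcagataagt
Fosb: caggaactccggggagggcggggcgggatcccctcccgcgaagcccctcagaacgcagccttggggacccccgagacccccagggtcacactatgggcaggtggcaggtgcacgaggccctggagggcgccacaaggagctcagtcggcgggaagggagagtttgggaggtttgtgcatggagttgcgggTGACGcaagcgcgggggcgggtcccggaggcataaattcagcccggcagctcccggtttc
Fos: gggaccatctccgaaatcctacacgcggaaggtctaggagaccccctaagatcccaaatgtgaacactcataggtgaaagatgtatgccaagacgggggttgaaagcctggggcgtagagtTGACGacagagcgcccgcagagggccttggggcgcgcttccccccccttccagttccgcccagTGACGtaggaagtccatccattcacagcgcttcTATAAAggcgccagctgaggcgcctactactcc
Junb: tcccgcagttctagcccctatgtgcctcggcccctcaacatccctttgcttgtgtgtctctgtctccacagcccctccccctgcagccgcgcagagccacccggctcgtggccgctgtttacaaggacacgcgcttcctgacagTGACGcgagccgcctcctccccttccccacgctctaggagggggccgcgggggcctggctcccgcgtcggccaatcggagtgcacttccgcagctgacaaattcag

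The half-site TGACG was in 10 of the 17 genes of the list that had a promoter window, and in 17.8% of all 32851 promoter windows of that length. A gene was counted if any of its windows held the motif, while the share over all counts windows singly. The gene counts and the shares below are therefore not the same measure. The half-site was chosen after the windows had been seen. TATAAA was in 2 of the 17 and in 12.4% of all. The full element TGACGTCA, which contains the half-site, was in 3 of the 17 and in 1.55% of all, TGAGTCA was in 0 of the 17 and in 4.46% of all, and the CArG box was in 2 of the 17 and in 1.47% of all. Of the 8 genes that were higher at an unadjusted p under 0.05, 4 held the half-site, 2 held TATAAA, and 0 held the full element, TGAGTCA or the CArG box. The window of Jun held none of these letters on either strand. These matches describe the windows and say nothing of binding.

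**Figure D2:**
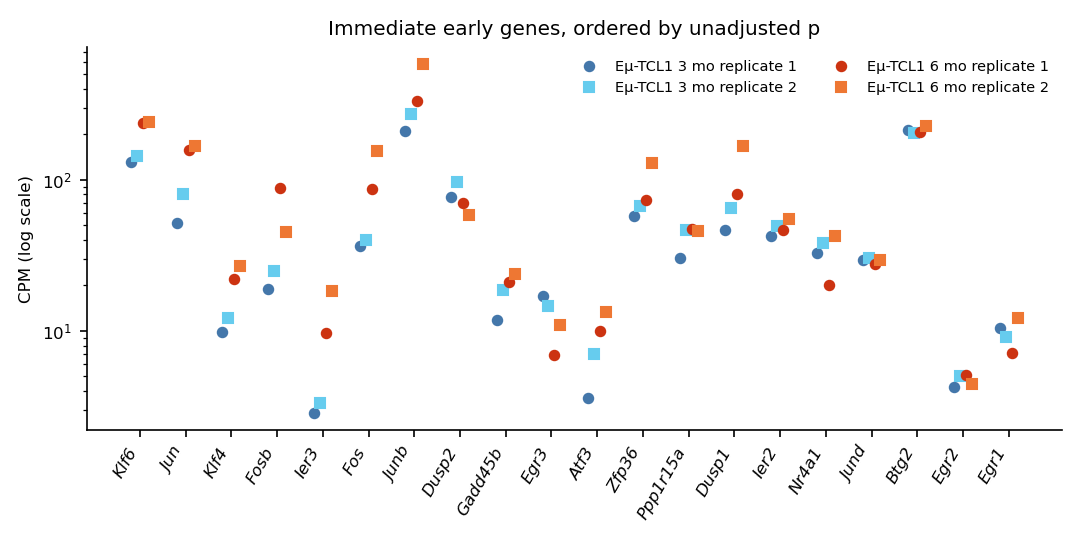
The CPM of the 20 immediate early genes in each of the 4 Eµ-TCL1 libraries is plotted on a log axis, in order of unadjusted p. For Klf6, Jun, Klf4, Fosb, Ier3, Fos and Junb both 6-month libraries (red and orange) lie above both 3-month libraries (blue).

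The median of the immediate early list was 0.38 without Eµ-TCL1 6 mo replicate 2, 0.43 without Eµ-TCL1 3 mo replicate 1 and 0.89 in a fit that also held Y-linked expression as a term, in which 3 of the 20 were higher at an unadjusted p under 0.05. Within groups, Y-linked counts differed widely only in Eµ-PRMT5/TCL1 at 3 months (7863, 1 and 3). The Y-linked term therefore rests largely on 1 library of the other genotype and does not separate sex from age. In Eµ-PRMT5/TCL1, whose 6-month libraries held no excess of Y-linked counts, the median of the same list between 6 and 3 months was 0.20. There Jun had a log2 fold change of 1.53, Fosb of 1.42, Fos of 1.02 and Junb of 0.23. The test of a difference between the genotypes passed for none of the 20 genes (adjusted p from edgeR), against 724 autosomal genes (3.97%) in all. That count was 2 with the replicate block and 2 to 2282 with 1 library left out.

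Genes of myeloid cells, which are not B cells, lay in both directions, some lists higher and one lower at 6 months. In the list of 18 monocyte and macrophage genes, 12 were higher and 6 lower, with a median of 0.40. The 4 lower at an unadjusted p under 0.05 were C1qa, C1qb and C1qc, which encode the subunits of complement C1q, and Vcam1, an adhesion molecule of resident macrophages. The 2 higher were Ccr2, the receptor that draws monocytes from the marrow, and Clec4a3, a C-type lectin of monocytes. C1qa had 59.2 and 44.3 CPM at 3 months and 15.6 and 14.3 CPM at 6 months (-1.79, SE 0.50). C1qb had 14.6 and 11.6 CPM at 3 months and 3.94 and 4.16 CPM at 6 months (-1.69, SE 0.38). C1qc had 45.1 and 29.6 CPM at 3 months and 11.5 and 10.1 CPM at 6 months (-1.79, SE 0.61). The 3 genes lie next to each other on chromosome 4 (GRCm38), and for each the ages did not overlap.

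Since the 18 genes mix cells of different kinds, they were looked at again by 2 lists compiled after the values had been seen, which therefore describe the pattern and lend it no support. Of 22 genes of resident splenic macrophages, 19 were lower and 3 higher, with a median of -1.27. Vcam1 had 199.7 and 137.5 CPM at 3 months and 50.5 and 30.6 CPM at 6 months (-2.06, SE 0.56). Mertk, a receptor for the uptake of apoptotic cells, had 45.6 and 26.9 CPM at 3 months and 10.1 and 7.50 CPM at 6 months (-2.04, SE 0.46). Mrc1, the mannose receptor, had 96.6 and 69.7 CPM at 3 months and 33.8 and 23.3 CPM at 6 months (-1.54, SE 0.53). The haemoglobin scavenger receptor Cd163 (-1.20), the integrin Itgad (-1.46), the prostaglandin synthase Hpgds (-0.90), Cd5l (-1.33) and Spic, the factor that specifies red pulp macrophages (-1.05), were lower as well. The 3 higher genes reached a log2 fold change of 1.11 and included Adgre1, the F4/80 antigen, with 71.6 and 63.9 CPM at 3 months and 83.4 and 100.3 CPM at 6 months. At an unadjusted p under 0.05, 13 of the 22 were lower and 0 higher, beside 5.23% lower over all autosomal genes. At an adjusted p of 0.05 DESeq2 called 8, the fit of the 4 libraries alone 4 and edgeR on all 9 libraries 0. Over all autosomal genes DESeq2 called 0.171% lower and the fit of the 4 libraries alone 0.0285%.

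Of 20 genes of classical monocytes, 20 were higher and 0 lower, with a median of 1.28. At an adjusted p of 0.05, 8 of them were called in the fit of the 4 libraries alone and 0 by DESeq2 or by edgeR on all 9 libraries, where 5 were at an unadjusted p under 0.05. Over all autosomal genes the fit of the 4 libraries alone called 0.228% higher, and 4.86% were higher at the unadjusted mark. Ccr2 had 146.9 and 189.4 CPM at 3 months and 639.3 and 614 CPM at 6 months (1.90, SE 0.70). Lilrb4a, an inhibitory receptor of myeloid cells, had 50.9 and 54.1 CPM at 3 months and 190.5 and 315.9 CPM at 6 months (2.27, SE 0.90). Fpr1, the formyl peptide receptor, had 7.59 and 11.7 CPM at 3 months and 32.5 and 37.5 CPM at 6 months (1.86, SE 0.80). These 3 genes were higher in both 6-month libraries than in either 3-month library. The 5 at an unadjusted p under 0.05 were Pirb, Ccr2, Clec4a3, Lilrb4a and S100a6.

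**Figure D3:**
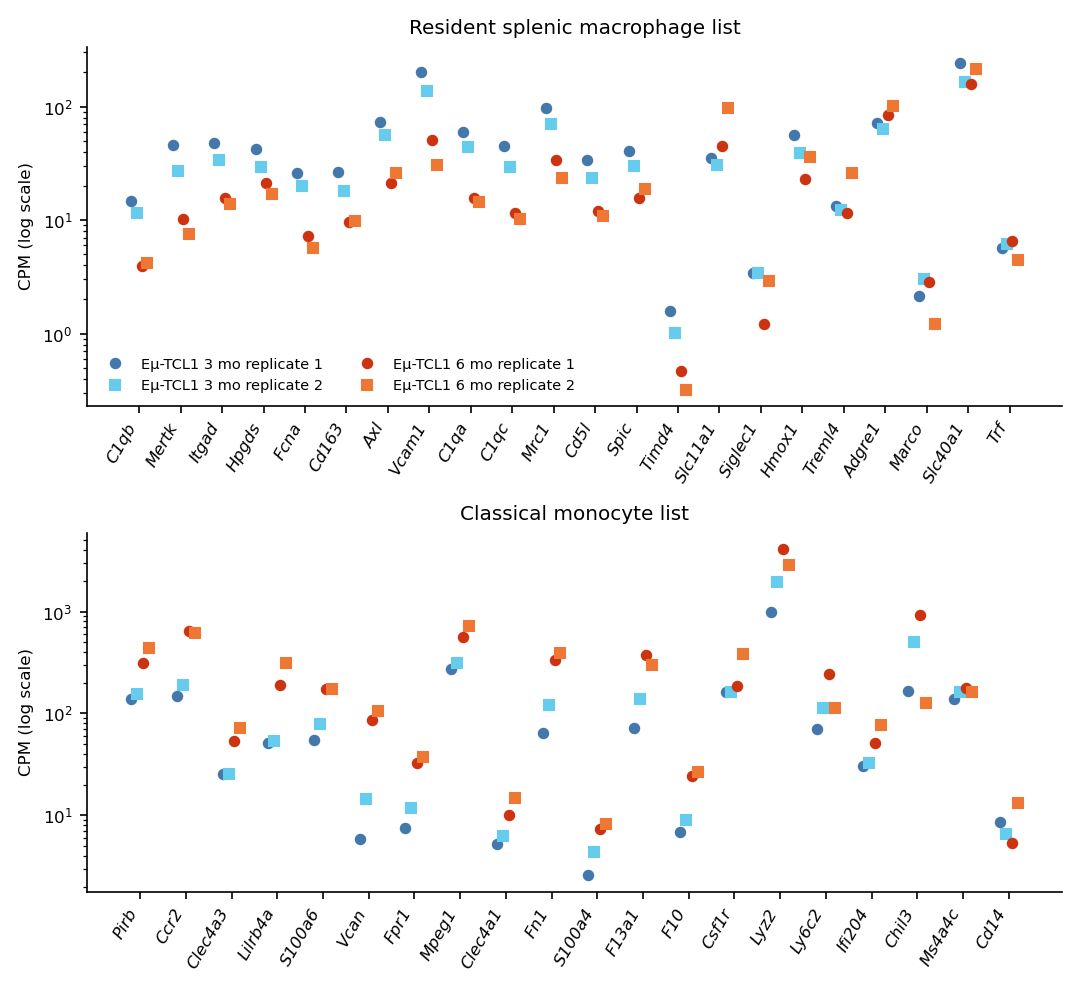
The CPM in each of the 4 Eµ-TCL1 libraries, on a log axis, is plotted for 22 genes of resident splenic macrophages (top) and 20 of classical monocytes (bottom), in order of unadjusted p. At the left of the top panel both 6-month libraries (red and orange) lie below both 3-month libraries, and at the left of the bottom panel they lie above them.

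The macrophage and monocyte genes varied between libraries in the other groups too. The summed level of the macrophage list was 1179 and 853 CPM at 3 months and 561 and 676 CPM at 6 months in Eµ-TCL1, and 688, 1675 and 903 CPM at 3 months and 966 and 686 CPM at 6 months in Eµ-PRMT5/TCL1. The monocyte list was at 2409 and 4049 CPM at 3 months and 8491 and 6937 CPM at 6 months in Eµ-TCL1, and at 2399, 3888 and 3430 CPM at 3 months and 7123 and 1291 CPM at 6 months in Eµ-PRMT5/TCL1, whose 6-month libraries were thus the highest and the lowest of that genotype. The Eµ-PRMT5/TCL1 library at 3 months with the lowest macrophage level, replicate 1, was the one that held Y-linked counts (7863). C1qa had 32.0 CPM in that library and 92.0 and 38.1 CPM in the other 3-month libraries of its group. In the fit with the Y-linked term the median of the macrophage list was -0.22, with 13 of 22 lower and 1 of them at an unadjusted p under 0.05, and that of the monocyte list was 1.92. Because that term rests largely on Eµ-PRMT5/TCL1 3 mo replicate 1, these medians do not separate sex from age. Without any 1 of the 4 Eµ-TCL1 libraries the macrophage median stayed between -1.5 and -0.96 and the monocyte median between 1.10 and 1.64. The part of sex and of the number of macrophages left after selection in these differences was not tested.

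Neutrophil genes were higher in the mean, but the libraries shared this only in part. For 7 of 16 genes both 6-month libraries were above both 3-month libraries, and for 0 both were below. Over all autosomal genes the values did not overlap for 20.8% that were higher and 23.7% that were lower. All 16 measured genes had a log2 fold change above 0, with a median of 1.37, and 0 of 16 reached an unadjusted p under 0.05 in edgeR. Their summed level was 2360 and 6748 CPM at 3 months and 16640 and 6868 CPM at 6 months, so 3-month replicate 2 and 6-month replicate 2 were nearly equal. Without Eµ-TCL1 6 mo replicate 1 the median was 0.14, with 8 genes higher and 8 lower. S100a9, a calcium-binding alarmin, had 886 and 2441 CPM at 3 months and 6349 and 3131 CPM at 6 months. Csf3r, the receptor for granulocyte colony-stimulating factor, had 79.9 and 91.0 CPM at 3 months and 199.2 and 591.5 CPM at 6 months.

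Of 12 natural killer cell genes, 11 were higher at 6 months (median 0.52). At an unadjusted p under 0.05, 3 were higher, beside 4.86% of all autosomal genes. Nkg7, a cytotoxic granule protein, had 15.1 and 13.6 CPM at 3 months and 24.3 and 33.6 CPM at 6 months (1.01, SE 0.19). Ccl5, a chemokine of cytotoxic lymphocytes, had 19.4 and 17.2 CPM at 3 months and 35.9 and 35.5 CPM at 6 months (0.96, SE 0.21). Both were called by DESeq2, and Eomes, a T-box factor of cytotoxic cells, was not (0.69, SE 0.26). The defining receptor Klrd1 was at 50.8 and 41.0 CPM at 3 months and 81.0 and 48.6 CPM at 6 months. The summed level of the list was 536 and 382 CPM at 3 months and 760 and 465 CPM at 6 months, which overlap. In the fit with the Y-linked term 6 of the 12 were higher and 6 lower, and without Eµ-TCL1 6 mo replicate 1 the median was 0.09. Ccl3, a chemokine made by activated lymphocytes and myeloid cells, had 4.23 and 4.04 CPM at 3 months and 12.04 and 10.9 CPM at 6 months (1.47, SE 0.30). T cell genes were nearer to 0 (13 of 20 higher, 2 at an unadjusted p under 0.05, median 0.13). Dendritic cell genes had a median of 0.45, with 3 of 14 higher and 1 lower at an unadjusted p under 0.05, among them Itgax, the integrin CD11c, at 53.7 and 67.1 CPM at 3 months and 98.6 and 115.2 CPM at 6 months (0.82, SE 0.21).

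**Figure D4:**
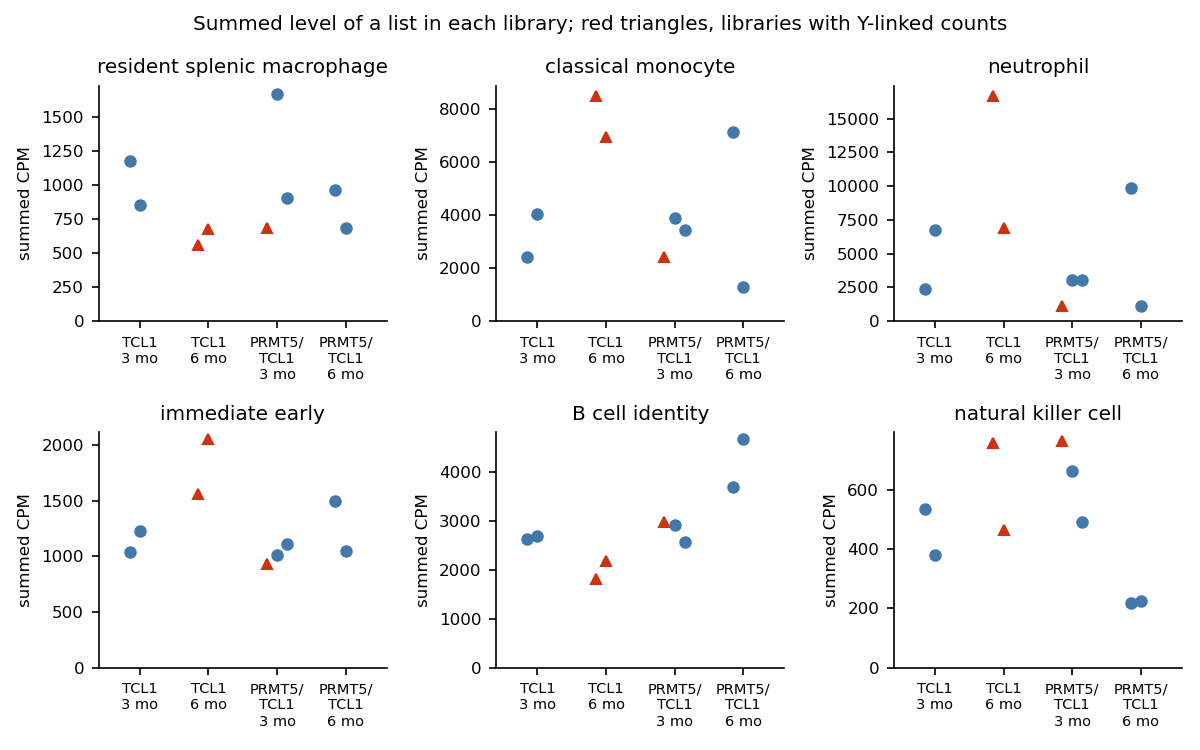
The summed CPM of 6 gene lists is plotted for each of the 9 libraries by group, with the vertical axis starting at 0 and red triangles for libraries that held Y-linked counts. The macrophage list is lower, and the monocyte and immediate early lists higher, in both 6-month Eµ-TCL1 libraries than in both at 3 months, while the neutrophil list is highest in 1 library of each 6-month group.

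Lists of B cell genes had small medians in both directions. All 5 B cell markers were lower at 6 months, with a median of -0.32, and 2 of them at an unadjusted p under 0.05. The list of these markers was added later, with earlier results known, so it describes the pattern and lends it no support. Ms4a1, which encodes CD20, had 1109 and 1048 CPM at 3 months and 726 and 754 CPM at 6 months (-0.54, SE 0.14). Cd79a, a signalling subunit of the B-cell receptor, had 122.9 and 101.2 CPM at 3 months and 50.7 and 86.6 CPM at 6 months (-0.71, SE 0.28). For these 2 genes both 6-month libraries were below both 3-month libraries, and 6-month replicate 1 was the lowest. Without that library the median of the 5 was -0.28, with 3 lower. The lower B cell markers stood beside the higher monocyte and neutrophil genes in the same libraries, and CPM values of a library share 1 total. How much of the one follows from the other was not tested.

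Among 24 genes of B-cell receptor signalling, 16 were lower (median -0.14), with 3 lower and 1 higher at an unadjusted p under 0.05. Over all autosomal genes 5.23% were lower and 4.86% higher at that mark. Blk, a SRC family kinase of B cells, had 309 and 227 CPM at 3 months and 174.6 and 173.1 CPM at 6 months (-0.62, SE 0.17). Vav2 was lower (-0.49) and its relative Vav1, which also occurs in other blood cells, higher (0.29); both encode guanine nucleotide exchange factors. Without Eµ-TCL1 6 mo replicate 1, 13 of the 24 were higher and 11 lower. Of 18 follicular B cell genes 13 were lower (median -0.33), with 2 lower and 1 higher (Klf2) at an unadjusted p under 0.05. Satb1, a chromatin organiser, had 536 and 546 CPM at 3 months and 352 and 348 CPM at 6 months (-0.63, SE 0.17). Bach2, a repressor that holds back plasma cell differentiation, had 134.5 and 117.1 CPM at 3 months and 63.6 and 94.1 CPM at 6 months (-0.67, SE 0.19). Both were lower by more in Eµ-PRMT5/TCL1 (-2.14 and -2.05), and the difference between genotypes passed edgeR's test (adjusted p 0.0173 and 0.0306). It did not pass with the replicate block (0.0886 and 0.159), with the Y-linked term (0.639 and 0.654) or with a term for T-cell markers (1.00 for both), where the difference for Satb1 was 0.33 in place of 1.51. T-cell markers were lowest in both Eµ-PRMT5/TCL1 6-month libraries (1201 and 946 CPM, against 1805 to 2742 CPM elsewhere). The T-cell term therefore overlaps with the difference between genotypes, and that fit cannot separate them. Leaving out 1 library gave adjusted p from 0.00135 to 0.0765 for Satb1 and from 0.0282 to 0.121 for Bach2.

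Genes known from CLL and B-1 cells had no common direction in Eµ-TCL1. Of 18, 10 were higher and 8 lower, with a median of 0.07. Cd5, the surface marker of the leukemic cells in this model, was at 69.3 and 75.3 CPM at 3 months and 64.2 and 90.1 CPM at 6 months, which overlap (0.09, SE 0.17). At an unadjusted p under 0.05, Cd200r1 (0.63), Plscr1 (0.53), Ahnak (0.39) and S100a6 (1.39) were higher and the inhibitory receptor Ctla4 (-0.51) and the cytokine Il10 (-0.68) lower. S100a6 also belongs to the monocyte list. The same 18 genes had a median of 1.35 in Eµ-PRMT5/TCL1. Age-associated B cell genes were mostly higher (13 of 16, median 0.34), with 3 at an unadjusted p under 0.05 (Nkg7, Itgax and Ahnak), of which Nkg7 is also in the natural killer list and Itgax in the dendritic list. Marginal zone genes had a median near 0 (9 of 18 higher).

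Genes of growth and division showed little difference. Of 37 S phase genes 27 were lower (median -0.08), and of 44 G2/M phase genes 24 were lower (median -0.05), with 1 gene of each list at an unadjusted p under 0.05. The summed levels crossed between the ages: the G2/M list was at 2584 and 3441 CPM at 3 months and at 3880 and 2138 CPM at 6 months. MYC-responsive and ribosome biogenesis genes had a median of 0.04. In it Hk2, a hexokinase, was higher, with 24.9 and 29.7 CPM at 3 months and 53.5 and 41.0 CPM at 6 months (0.79, SE 0.19), and Myc itself was at 35.8 and 29.6 CPM at 3 months and 24.0 and 24.0 CPM at 6 months (-0.45, SE 0.17). In Eµ-PRMT5/TCL1 the medians of these 3 lists were 0.71, 1.15 and 0.61.

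Several lists of housekeeping machines leaned 1 way by small amounts. Cytosolic ribosomal protein genes were higher in 69 of 73 cases, with a median of 0.21 and none at an unadjusted p under 0.05. Their summed level was 38570 and 42960 CPM at 3 months and 51990 and 42110 CPM at 6 months, so the ages overlapped. Without Eµ-TCL1 6 mo replicate 1, 42 were higher and 31 lower, with a median of 0.012. Nuclear-encoded respiratory chain genes (61 of 74 higher, median 0.14) and proteasome subunits (31 of 36 higher, median 0.10) leaned the same way. In each list 3 genes were higher at an unadjusted p under 0.05, beside 4.86% of all genes, and 1 respiratory chain gene (Cox6a2, named after its value was seen) was lower. Their summed levels overlapped too, at 3805 and 4292 CPM at 3 months and 4973 and 4092 CPM at 6 months for the respiratory chain and at 2345 and 2523 CPM against 2854 and 2479 CPM for the proteasome. Without Eµ-TCL1 6 mo replicate 1, 38 of the 74 and 19 of the 36 were higher, with medians of 0.023 and 0.017. Heat shock and protein folding genes were lower in 15 of 18 cases (median -0.12), with none at that mark.

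**Figure D5:**
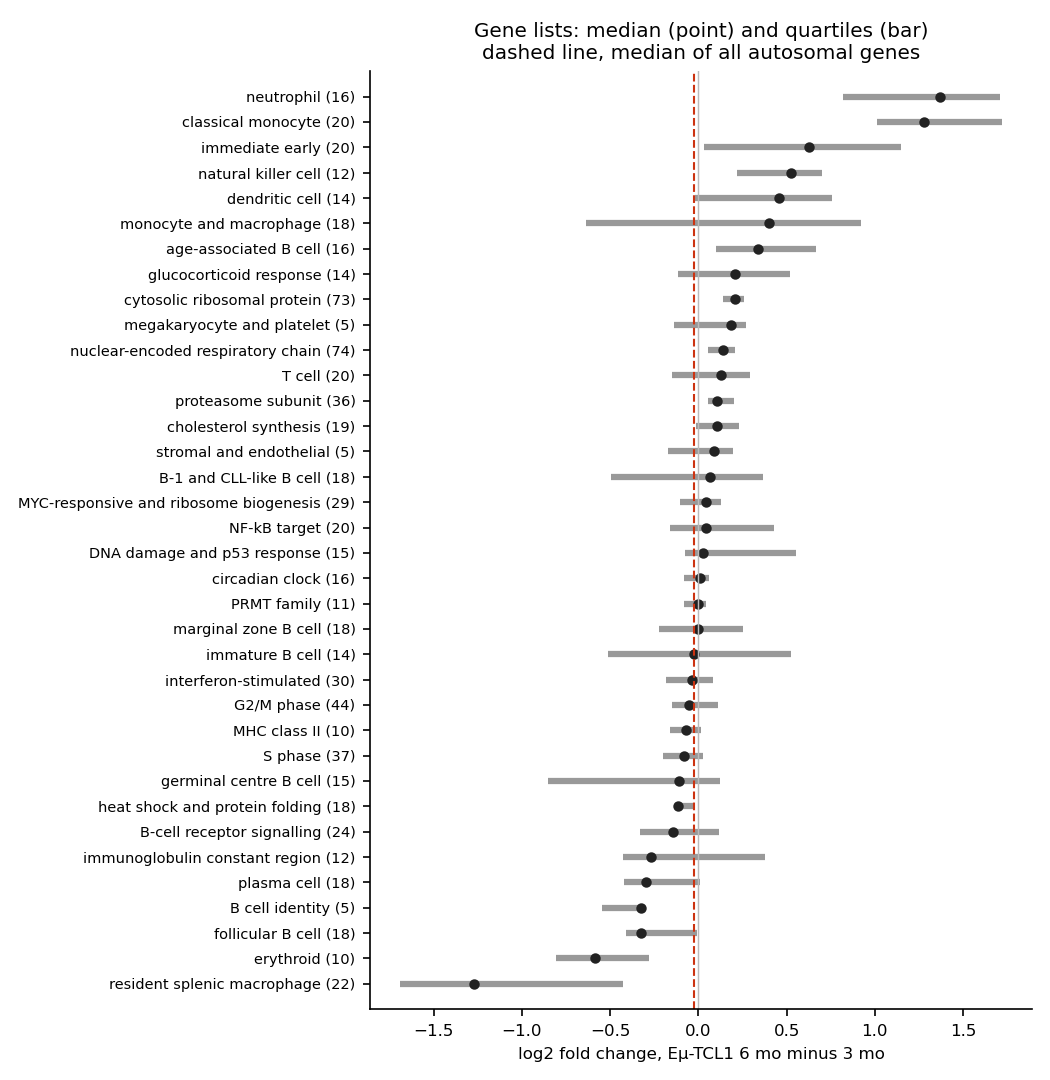
For each of 36 gene lists the point is the median log2 fold change between 6 and 3 months in Eµ-TCL1 and the bar spans the quartiles, with the number of measured genes in parentheses and a dashed line at the median of all autosomal genes (-0.02). The neutrophil and classical monocyte lists lie farthest to the right and the resident splenic macrophage list farthest to the left, and the S phase (-0.08) and G2/M phase (-0.05) lists lie close to 0. The classical monocyte and resident splenic macrophage lists were compiled after the values had been seen, so their places lend no support.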

How the data were processed

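RNA-seq libraries of splenic B cells from 9 mice were analysed, 1 per mouse. Per the study's methods and the file headers, the authors trimmed reads with Cutadapt, aligned them to GRCm38 with STAR 2.6.0c and deposited raw counts per gene from featureCounts 1.4.6-p5 (primary alignments, no strand option, Ensembl 95). Reads of genes that overlap on opposite strands can therefore be mixed, which touches Pax5, Cd22, Fcna, Litaf, Gas7, Bmpr1a, Vps37b, Crem, Jun, Junb, Vcam1, Itgad, Cox6a2, Lilrb4a, Eomes, Satb1, Bach2, Myb, Sox4, Txnip and Nr1d1. The human transgenes were not analysed here. Total counts ranged from 12233230 to 17330246, and 3 counts in the smallest library equal 0.245 CPM.

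The deposited counts were tested with edgeR 4.0.16 in R 4.3.3 (filterByExpr, TMM scaling, robust glmQLFit and glmQLFTest). All 4 groups entered 1 fit, and p-values were adjusted by Benjamini-Hochberg over all 18795 tested genes. Standard errors came from the log2 fold change and its F statistic. Fold changes for lists were summarised without a test. DESeq2 1.42.0, the 4 libraries alone and other settings were alternatives. Symbols came from GENCODE M21. The script was tested on simulated data, where the fit of the 4 libraries alone made a larger share of false calls than the fit of all 9.

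The comparison, its 33 gene lists and the 3 further lists were chosen with earlier results of these data known. Named were the 12 higher and 12 lower protein-coding genes with the smallest unadjusted p, a mean of at least 5 CPM and no overlap between ages, up to 4 members of each list by smallest p, and genes called by both DESeq2 and the fit of the 4 libraries. Other members were named after their values were seen. Some list members are not reported here and were left out of the list counts. Replicates within groups differed by more than counting noise (chi-square per gene 7.62 to 59.2). The labels give a replicate number but no shared litter or day, so p-values measure the spread between these mice.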

Additional observations from a re-analysis of the deposited data

Results flagged for a closer look

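Of 94 genes named in the text, 21 had a change with age that differed between Eµ-TCL1 and Eµ-PRMT5/TCL1 by edgeR's test of the interaction (Benjamini-Hochberg adjusted p under 0.05), where the value is the log2 fold change with age in Eµ-TCL1 minus that in Eµ-PRMT5/TCL1. Over all autosomal genes 724 (3.97%) passed. Many of the 94 were named for a small p of the Eµ-TCL1 change, which is itself a term of the interaction, so their count is not comparable with that share. With the replicate block, the crossed block, the Y-linked term or a term for T-cell markers 0 of the 21 passed (21, 21, 20 and 8 at an unadjusted p under 0.05), DESeq2 called 21, and leaving out 1 library left 0 to 21, with 0 without Eµ-TCL1 3 mo replicate 1 and 2 without Eµ-PRMT5/TCL1 3 mo replicate 3. The Y-linked term rests largely on 1 Eµ-PRMT5/TCL1 library at 3 months, and the T-cell term overlaps with the interaction. In 16 of the 21 the signs in the genotypes were opposite, and no single Eµ-TCL1 change passed its own threshold in edgeR's fit of all libraries. The cytokine Il10 differed by -4.13 (adjusted p 0.00710), with -0.68 in Eµ-TCL1 and 3.45 in Eµ-PRMT5/TCL1. Lower in Eµ-TCL1 and higher in Eµ-PRMT5/TCL1 were Eaf2 (difference -2.25), Blk (-1.89), Cd83 (-1.76), Myb (-1.56), Myc (-1.53), Ms4a1 (-1.44), Spib (-1.41), Crem (-1.32), Ctla4 (-1.24) and Cd79b (-1.05). Higher in Eµ-TCL1 and lower in Eµ-PRMT5/TCL1 were Ccl3 (2.34), the natural killer receptor Klrd1 (2.02), Ccl5 (1.26), Spata13 (1.18) and Tnfaip8l2 (1.12).

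The other 5 had the same sign in both genotypes and a smaller change in Eµ-TCL1, namely Gas7 (-2.13), Plscr1 (-2.05), Ahnak (-1.72), Satb1 (1.51) and Bach2 (1.38). Both 6-month Eµ-TCL1 libraries and neither 6-month Eµ-PRMT5/TCL1 library held Y-linked counts, and groups of 2 or 3 samples were too small to look for single samples far from the others.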

How the results depend on the processing

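Adjusted-p calls between 6 and 3 months in Eµ-TCL1 numbered 0 in edgeR's fit of all 9 libraries, with 1842 autosomal genes at an unadjusted p under 0.05. They numbered 55 in DESeq2 and 45 in the 4 Eµ-TCL1 libraries alone, and ranged from 0 to 110 when any 1 library was left out. The other settings gave 0, including other size factors, other filters, thinned libraries and covariates. Genes higher at an unadjusted p under 0.05 (887) numbered 505 with the replicate number as a block and 499 with a term for Y-linked expression, and 338 to 1652 when 1 library was left out. Genes lower at that mark (955) numbered 619 in DESeq2, 614 with the replicate block, 360 with the Y-linked term, and 319 to 1279 when 1 library was left out. Leaving out Eµ-TCL1 3 mo replicate 1 gave the fewest in both directions (338 and 319), and leaving out Eµ-TCL1 6 mo replicate 1 gave 563 lower genes. Leaving out either Eµ-PRMT5/TCL1 6-month library, whose replicates differed most, gave 1650 and 1652 higher genes.

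The interaction of genotype and age (724 genes) was the least stable. It gave 1213 genes in DESeq2, 2 with the replicate block, and in edgeR 0 with the Y-linked term (1301 at an unadjusted p under 0.05), 0 with a term for T-cell markers (480) and 2 to 2282 when 1 library was left out. After seeing the data, the deviations of same-numbered Eµ-TCL1 samples were found to have a weak negative correlation (-0.239 over genes). With 2 libraries a group, the crossed pairing has the same value with the opposite sign by construction. The crossed pairing, added for that reason, gave 0 interaction genes in edgeR (2726 at an unadjusted p under 0.05). A myeloid score added as a covariate gave 1314. The numbers were not shown to pair mice, and the cause of these shifts was not tested.

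Over 22 settings, 4 of 94 named genes changed sign in any of them, each a gene with no call. When 1 library was left out, Pax5 ranged from -0.75 to 0.036, Cd22 from -0.65 to 0.00082, Cd5 from -0.16 to 0.33 and Sox4 from -0.58 to 2.98. The positive values of Pax5 and Cd22 came without Eµ-TCL1 6 mo replicate 1, and the negative values of Cd5 and Sox4 without Eµ-TCL1 6 mo replicate 2. Of the list medians, 694 stayed within the spread between replicates and 97 moved beyond it. With Y-linked counts at 6 months only, sex cannot be told apart from age in these 4 libraries. The 6-month libraries were also the deeper ones. With every library thinned to 12233230 counts, 887 autosomal genes were higher and 919 lower at an unadjusted p under 0.05 in edgeR. Without thinning the numbers were 887 and 955.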

Other observations

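Other gene groups were measured in the same 4 libraries. Over all autosomal genes 4.86% were higher and 5.23% lower at an unadjusted p under 0.05. NF-kB target genes had a median log2 fold change of 0.04 (12 of 20 higher), with Ccl3, Ccl4 and Nfkbiz higher and Cd83, an activation marker of B cells, lower at an unadjusted p under 0.05. Cd83 had 135.7 and 172.5 CPM at 3 months and 93.1 and 80.7 CPM at 6 months (-0.83, SE 0.22), and it was higher in Eµ-PRMT5/TCL1 (0.93). Germinal centre genes had a median of -0.11 (8 of 15 lower), with Mybl1, Nuggc (-1.15) and Rgs13 (-1.49) lower at that mark. Plasma cell genes were lower in 12 of 18 cases (median -0.30), with Eaf2 (-0.90) at that mark, and immunoglobulin constant region genes in 7 of 12 (median -0.27), with none. Of 14 immature B cell genes 8 were lower (median -0.02), with Spib (-0.58), Ebf1 (-0.65) and Myb (-0.53) lower at that mark. Cd93, a marker of transitional B cells, was the one higher, at 32.5 and 38.0 CPM at 3 months and 48.8 and 55.7 CPM at 6 months (0.57, SE 0.13). Sox4 was at 4.66 and 5.05 CPM at 3 months and at 3.24 and 38.1 CPM at 6 months, so its mean rests on 1 library.

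Glucocorticoid response genes had a median of 0.21 (9 of 14 higher), with Txnip higher (347 and 413 CPM at 3 months, 515 and 603 CPM at 6 months) and the clock gene Per1 lower (25.4 and 28.2 CPM, 14.5 and 21.9 CPM) at an unadjusted p under 0.05. Circadian clock genes as a list had a median of 0.01 (9 of 16 higher), with Per1 and Nr1d1 (-0.92) lower at that mark. Cholesterol synthesis genes had a median of 0.10 (12 of 19 higher), with Mvd (0.47) higher at that mark. DNA damage and p53 response genes had a median of 0.03 (8 of 15 higher), with Bbc3 (0.60) and Sesn2 (0.77) higher. Interferon-stimulated (median -0.03, 30 genes), MHC class II (-0.07, 10 genes) and PRMT family genes (-0.0018, 11 genes) had none at that mark, and mouse Prmt5 was at 32.8 and 33.5 CPM at 3 months and 33.1 and 36.5 CPM at 6 months. Erythroid genes were lower in 9 of 10 cases (median -0.59), at summed levels of 125.7 and 136.3 CPM against 130.6 and 88.8 CPM, which overlap. Only 5 megakaryocyte (median 0.18) and 5 stromal genes (median 0.09) passed the filter on low counts.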
